A study of Homo sapiens with 8 samples.

Results

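The 4 libraries labelled as NELL1 knockout in this series fell into a pair made of replicates 1 and 2 and a pair made of replicates 3 and 4, and the genes that separated these pairs are described here. The cells were 143B, an established human osteosarcoma line. Total RNA was taken 48 h after transient transfection with TransIT-LT1 in both groups. The plasmid of the knockout group (4 libraries) was labelled NELL1KO, and that of the control group (4 libraries, labelled genotype control) was the vector. The design text calls the 4 libraries of a group biological replicates, and neither it nor the labels say which replicates were handled together, how the plasmid acts on the gene, or whether knockout cells were selected or cloned. All values are deposited log2 values that had been quantile normalized, so each is a level relative to the rest of the transcriptome, and no depth is known. The table lists 54174 gene symbols; 13943 of them carried values in every one of the 8 libraries, and the 9016 with a mean of at least 1 were used.

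Knockout libraries 1 and 2 (pair 1-2) were set against knockout libraries 3 and 4 (pair 3-4), and control libraries 1 and 2 against control libraries 3 and 4 as a reference for what the replicate sets share. A pair difference is the mean of libraries 3 and 4 minus the mean of libraries 1 and 2, on the log2 scale, so that 1 is a 2-fold difference. A gene was counted where the difference was at least 1 in size and the values of the pairs did not overlap. Each SE is taken from the spread within the 4 same-group pairs of libraries (4 residual degrees of freedom) and covers only that spread. The pairs were chosen by the log2 values of these same genes, and the 5 genes described first (DDIT3, THBD, HMOX1, EPAS1 and VIPR1) were selected on the same difference, so every pair difference below is a description of 2 libraries against 2 and carries no test.

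Several programmes recur below. In the integrated stress response, kinases that sense amino acid shortage, unfolded protein, viral RNA or heme deficiency phosphorylate the initiation factor eIF2, most translation falls, and the transcription factor ATF4 is made and switches on genes of amino acid supply and, through DDIT3 (CHOP), of cell death. Replication-dependent histone genes supply the histones of new chromatin in S phase and make transcripts that end in a stem-loop instead of a poly(A) tail. The basement membrane is a sheet of type IV collagen, laminins, nidogen and the proteoglycans perlecan and agrin, against which cells anchor through integrins, and osteosarcoma cells, which arise in the bone-forming lineage, make much of their own matrix.

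Between the knockout pairs 367 of 9016 genes were counted (4.07%). Of these, 217 were higher in libraries 3 and 4 (2.41%) and 150 were higher in libraries 1 and 2 (1.66%). The same rule counted 15 genes between the control sets (0.166%), 14 higher in libraries 3 and 4 (0.155%) and 1 higher in libraries 1 and 2 (0.0111%). Of all 9016 genes, 51.3% had a knockout difference below 0 and 48.7% one above 0. The control count depended on 2 libraries: it was 4 without control library 3 and 54 without control library 4. The SD of the pair difference across genes was 0.47 between the knockout pairs and 0.19 between the control sets, and within a same-group pair it ran from 0.10 to 0.19. The pairs did not overlap, at any size of difference, for 84.6% of genes in the knockouts and 58.5% in the controls. The median counted difference was 1.22 among genes higher in pair 3-4 and 1.24 among genes higher in pair 1-2, and 19 and 9 of them were past 2.

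The control libraries lay between the knockout pairs for most of the counted genes. Of the 217 genes higher in pair 3-4, 131 (60.4%) had both values of pair 1-2 below all 4 controls and both values of pair 3-4 above all 4. Of the 150 genes higher in pair 1-2, 97 (64.7%) had pair 1-2 above all controls and pair 3-4 below all of them. In 41 of the 217 genes pair 3-4 alone lay outside the controls, and in 26 pair 1-2 alone did. For the 150 genes these counts were 25 and 12. The counted genes were chosen for a wide gap between the knockout pairs, which leaves more room for the controls to lie within it. The same shares were not counted over all used genes, so those given here cannot be called high or low.

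A smaller difference of the same sign was common between the control sets. Across the 9016 genes the knockout and control differences had a Pearson r of 0.31 and a Spearman rho of 0.28, a description over genes that are not independent of one another, and 58.9% of genes had the same sign in both. Among the counted genes the control sign was the same in 186 of 217 (85.7%) and 103 of 150 (68.7%), but the control difference was at least 0.5 of the knockout difference in only 15 and 4 of them. With each same-numbered control value subtracted from the knockout value, 312 genes were counted (3.46%), 161 higher in pair 3-4 (1.79%) and 151 higher in pair 1-2 (1.67%), so the 2 directions were then nearly equal. Of the genes higher in pair 3-4, 129 of 217 were counted in both ways, and of those higher in pair 1-2, 99 of 150 were.

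**Figure D1:**
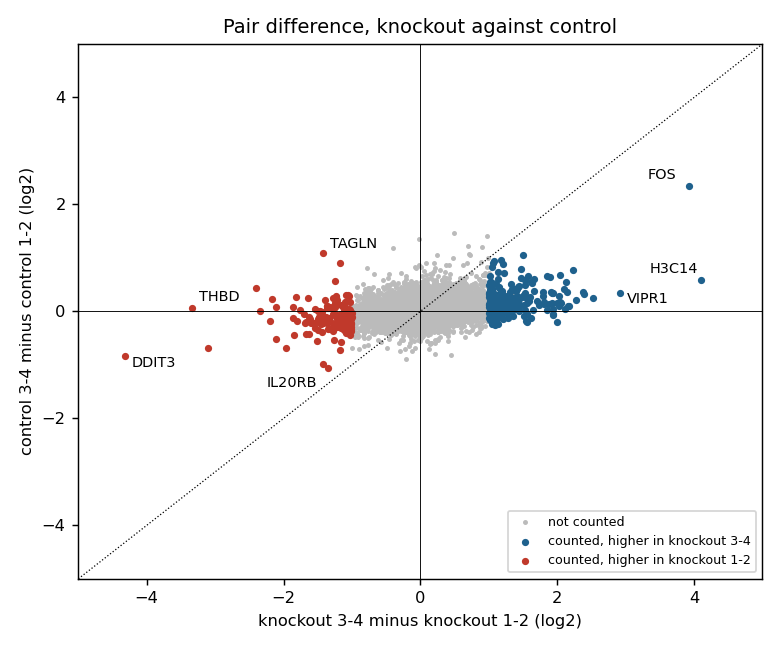
Each point is 1 of 9016 genes, with the knockout pair difference on the x axis and the control set difference on the y axis (both libraries 3-4 minus 1-2, log2), and the dotted line marks equal differences. The 367 counted genes spread along the x axis from -4.32 to 4.10, while between the control sets FOS, at 2.35, lies apart from the other genes.

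DDIT3, the stress-induced transcription factor CHOP, had the largest difference of all. Its log2 value was 5.89 and 5.84 in knockout libraries 1 and 2 and 1.55 and 1.54 in libraries 3 and 4. The controls stood at 5.54, 5.57, 4.26 and 5.20. Pair 3-4 was thus below every control and pair 1-2 above every control, with the controls close to pair 1-2. The difference was 4.32 ± 0.33 (SE), or 19.96-fold, and the control sets differed in the same direction by 0.83.

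THBD encodes thrombomodulin, a surface receptor best known from endothelium that turns thrombin towards the activation of protein C. It had values of 3.09 and 3.08 in libraries 1 and 2 and -0.14 and -0.36 in libraries 3 and 4. The controls were at 1.60, 1.57, 1.56 and 1.75, midway between the pairs and close to one another. Pair 1-2 was higher by 3.34 ± 0.10 (SE), or 10.1-fold, against a control set difference of 0.07 in the other direction.

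HMOX1, heme oxygenase 1, breaks down heme and is a classic target of the oxidative stress factor NRF2. Its values were 3.69 and 3.90 in libraries 1 and 2, 1.17 and 1.62 in libraries 3 and 4, and 1.66, 1.48, 2.17 and 1.83 in the controls. Pair 1-2 stood apart from the other 6 libraries, while the values of pair 3-4 overlapped those of the controls. The knockout pairs differed by 2.40 ± 0.22 (SE), or 5.29-fold.

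EPAS1, the hypoxia-inducible factor HIF-2 alpha, had values of 3.55 and 3.47 in libraries 1 and 2 and 1.68 and 1.71 in libraries 3 and 4. Its controls were 2.18, 2.14, 2.51 and 2.35. The pairs lay on either side of all controls and differed by 1.82 ± 0.06 (SE), or 3.53-fold.

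VIPR1, a receptor for vasoactive intestinal peptide that raises cAMP, went the other way. It stood at 0.46 and 0.63 in libraries 1 and 2, at 3.48 and 3.45 in libraries 3 and 4, and at 1.09, 1.28, 1.66 and 1.41 in the controls. The pairs again lay on either side of all controls, and pair 3-4 was higher by 2.92 ± 0.13 (SE), or 7.58-fold.

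**Figure D2:**
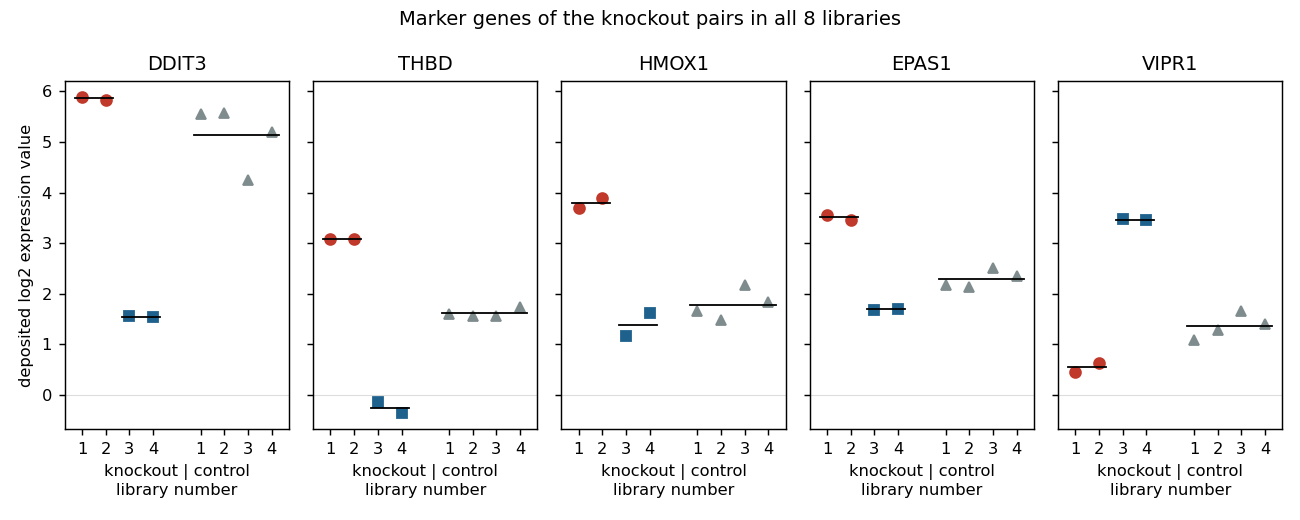
Deposited log2 values of DDIT3, THBD, HMOX1, EPAS1 and VIPR1 in each library; circles are knockout libraries 1-2, squares knockout libraries 3-4, triangles the 4 controls, and bars the means. In THBD, EPAS1 and VIPR1 the controls lie between the pairs, in DDIT3 pair 3-4 lies far below the controls (1.55 and 1.54 against 4.26 to 5.57), and in HMOX1 pair 1-2 lies above all other libraries.

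Genes with the profile nearest to each of these 5 were ranked by the root mean square distance over the 8 libraries after each gene was centred on its own mean. Nearest to DDIT3 were CLGN (distance 0.49), OSCAR (0.80) and THBD (0.80). Nearest to THBD were CLGN, GEM and SESN2. HMOX1 was closest to ANKRD1, EPAS1 and CCN1, and EPAS1 to UAP1, TMEM88 and ACSS1. VIPR1 was closest to PPP1R10, LYPD1 and ARHGEF3. Of these neighbours UAP1, an enzyme that makes the sugar donor UDP-N-acetylglucosamine, had the smallest distance, 0.17 from EPAS1, with a pair difference of 1.47 in favour of pair 1-2.

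The other large differences in favour of pair 1-2 were spread over several functions. CLGN, a chaperone of the endoplasmic reticulum (ER) lumen best known from testis, read 3.38 and 3.41 in libraries 1 and 2 and 0.39 and 0.20 in libraries 3 and 4, against controls of 3.25, 3.15, 2.09 and 2.92. BIRC3, an inhibitor of apoptosis and NF-kappaB target, was higher by 2.34 and SESN2, a sestrin that restrains mTORC1, by 2.21. ANKRD1, a nuclear ankyrin repeat protein and target of YAP, read 6.48 and 6.49 in pair 1-2 and 4.27 and 4.35 in pair 3-4, with the controls from 3.84 to 4.19. For ANKRD1 it was thus pair 1-2 that stood apart from the other libraries. OSCAR, an immunoglobulin-like collagen receptor first known from osteoclasts, and SMIM3, a small membrane protein, were both higher by 2.11. DDIT4, an mTORC1 inhibitor, was higher by 1.97. The transcriptional co-regulator IFRD1 and the small GTPase GEM were both higher by 1.86.

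In favour of pair 3-4, FOS, an immediate-early transcription factor of the AP-1 complex, had the largest difference outside the histone genes, at 3.93 ± 0.50 (SE). Its values were 1.28, 2.01, 5.60 and 5.55 in knockout libraries 1 to 4 and 2.15, 2.29, 5.17 and 3.97 in control libraries 1 to 4. Both groups were higher in libraries 3 and 4, and the control sets differed by 2.35, so FOS was among the 3 genes counted in the same direction in both groups, with THBS1 and IL20RB. PPP1R10, the nuclear targeting subunit PNUTS of protein phosphatase 1, was at 1.66 and 2.02 in pair 1-2 and at 4.25 and 4.47 in pair 3-4, with controls from 2.07 to 2.42. Here pair 3-4 stood apart. TM4SF18, a tetraspan membrane protein, was higher by 2.37, the kelch protein KLHL4 by 2.27, the secreted protein MSMP by 2.22, the cation channel TRPA1 by 2.16, LYPD1 by 2.14 and the scavenger receptor COLEC12 by 2.13. For KLHL4 and TRPA1 the controls (1.59 to 1.87 and 1.89 to 2.00) lay near pair 3-4, and for LYPD1 (0.62 to 1.10) near pair 1-2.

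The integrated stress response list held 47 genes, of which 42 were used. Of these, 11 were counted as higher in pair 1-2 (26.2%) and 0 as higher in pair 3-4. Over all 9016 genes 4.07% were counted, 1.66% as higher in pair 1-2 and 2.41% in pair 3-4, the reference for every list below. Differences below 0 numbered 35 of 42, against 51.3% of all genes. The median was -0.47 (-0.08 between the control sets, and -0.01 for all 9016 genes). The counted genes were DDIT3, which was selected on this same difference, and 10 of the 28 targets. SESN2 had values of 2.96 and 2.96 in pair 1-2, 0.56 and 0.95 in pair 3-4 and 2.58 to 2.84 in the controls. CHAC1, which degrades glutathione, had values of 2.09 and 2.13, then 0.43 and 0.18, with controls from 1.85 to 2.15. TRIB3, a pseudokinase induced by ATF4 and DDIT3, was higher in pair 1-2 by 1.67 ± 0.09 (SE). CTH, the cystathionine lyase that makes cysteine, read 1.81 and 1.75 in pair 1-2, 0.22 and 0.34 in pair 3-4 and 1.33 to 1.58 in the controls.

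In these genes, as in DDIT3, the controls lay near pair 1-2 and pair 3-4 was the low one. GDF15, a stress-induced secreted factor, was arranged otherwise: 5.07 and 5.14 in pair 1-2, 3.79 and 3.69 in pair 3-4, and 3.72 to 3.81 in the controls. The hormone gene STC2 (1.43), the activin subunit INHBE (1.43), the folate enzyme MTHFD2 (1.12) and the chloride channel protein CLIC4 (1.06) completed the counted targets with DDIT4. With same-numbered controls subtracted, 9 of the 11 were counted, and INHBE and MTHFD2 were not.

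Upstream, the kinases and eIF2 regulators differed less than the targets, and the transcription factors did not. The 9 used kinases and eIF2 regulators had a median of -0.05 (controls 0.04) and none was counted. The 5 used transcription factors, DDIT3 among them, were all below 0, with a median of -0.70 (controls -0.05). The 28 used targets had a median of -0.62 (controls -0.16). ATF4 itself read 6.18 and 6.22 in pair 1-2 and 5.50 and 5.51 in pair 3-4 with controls from 6.26 to 6.35, a difference of 0.70 ± 0.03 (SE) that stayed under the 2-fold rule. EIF2AK3, the ER kinase PERK, differed by 0.06. ASNS, asparagine synthetase, was higher in pair 1-2 by 0.69, and PPP1R15A, which recruits the phosphatase of eIF2, by 0.76. PHGDH, the first enzyme of serine synthesis, was 0.91 higher in pair 3-4, at 7.71 and 7.87 against 6.83 and 6.93.

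Genes of the unfolded protein response and ER chaperones leaned the same way with smaller values. Of 28 used, 25 were below 0, the median was -0.29 (controls -0.13), and 1 was counted (3.57%, against 4.07% of all genes). That gene was DNAJB9, an ER co-chaperone induced through IRE1 and XBP1, at 3.52 and 3.54 in pair 1-2, 1.99 and 1.81 in pair 3-4 and 3.41 to 3.64 in the controls. HERPUD1, a component of ER-associated degradation, was higher in pair 1-2 by 0.70 and the oxidase ERO1B by 0.87. XBP1 differed by 0.05. HSPA5, the chaperone BiP, read 8.85 and 8.86 in pair 1-2 and 8.08 and 8.91 in pair 3-4, so its pairs overlapped. Among heat shock genes HSPA8, the constitutive HSP70, was higher in pair 1-2 by 1.17, while its co-chaperone BAG3 was higher in pair 3-4 by 1.28. BAG3 was counted with same-numbered controls subtracted and HSPA8 was not.

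The 36 used NRF2, antioxidant and iron genes had a median of -0.21 (controls 0.02). Of these, 3 were counted (8.33%, against 4.07% of all genes), all higher in pair 1-2: HMOX1, CHAC1 and GCLM. GCLM, the modifier subunit of the enzyme that limits glutathione synthesis, read 2.56, 2.72, 1.48 and 1.56 in knockout libraries 1 to 4 and 2.24 to 2.32 in the controls. The 11 glutathione and thioredoxin genes had a median of -0.38 (controls 0.01), and 10 of them were below 0. Thioredoxin reductase TXNRD1 was higher in pair 1-2 by 0.81 and ferritin light chain FTL by 0.80. The 10 NADPH and detoxification genes had a median of 0.15 (controls 0.02), of the opposite sign. All 8 used metallothionein and metal response genes were below 0 (median -0.27, controls -0.01) and none was counted.

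**Figure D3:**
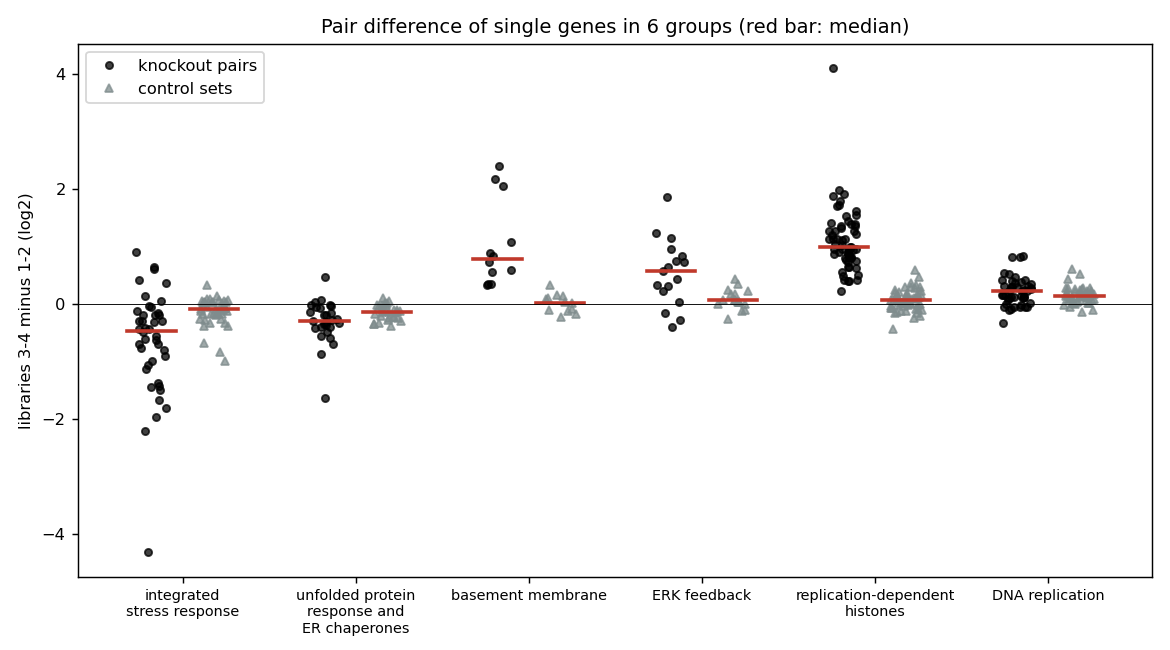
Pair differences (libraries 3-4 minus 1-2, log2) of single genes in 6 groups, for the knockout pairs (circles) and the control sets (triangles), with red bars for medians. The stress response points reach down to -4.32 with a median of -0.47, the basement membrane and histone points lie above 0 in all 12 and 59 genes, and the control medians lie between -0.13 and 0.13.

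Basement membrane genes were low in pair 1-2: the median level over the list was 3.33 and 3.44 there, 4.34 and 4.32 in pair 3-4 and 4.14 to 4.32 in the controls. All 12 used genes were above 0, against 48.7% of all genes, and the median difference was 0.78 (controls 0.02). Of the 12, 4 were counted (33.3%, against 4.07% of all genes). HSPG2, which encodes perlecan, read -0.47 and -0.03 in libraries 1 and 2, 2.13 and 2.17 in libraries 3 and 4 and 1.71, 1.74, 2.10 and 2.02 in the controls. COL4A1, a type IV collagen chain, read 2.67, 2.92, 4.91 and 5.03 in knockout libraries 1 to 4 and 4.44 to 4.59 in the controls. Its partner chain COL4A2 read 4.36, 4.66, 6.53 and 6.60, with controls from 6.20 to 6.36. Pair 3-4 stood close above the controls in these genes and pair 1-2 far below them. HSPG2 differed by 2.40 ± 0.16 (SE), COL4A1 by 2.17 ± 0.10 and COL4A2 by 2.05 ± 0.11, and the laminin chain LAMA5 by 1.08 ± 0.21. The laminin chains LAMB1 (0.88) and LAMC1 (0.84), nidogen NID1 (0.72) and agrin AGRN (0.60) were higher in pair 3-4 without reaching the 2-fold rule. With same-numbered controls subtracted all 4 counted genes were counted again.

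COL4A1 and COL4A2 are transcribed in opposite directions from starts that lie close together, and their differences were nearly equal. The interval between the start sites in RefSeq on GRCh38.p14 is shown because the pair shares it as a promoter; it holds 126 bases at chr13:110307158-110307283 and is printed on the plus strand, with CCAAT and GGGCGG in capitals.
COL4A1-COL4A2 interval: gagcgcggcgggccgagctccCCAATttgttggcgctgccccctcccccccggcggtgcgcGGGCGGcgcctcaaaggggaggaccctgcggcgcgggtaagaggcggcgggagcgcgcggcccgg
Over 35116 RefSeq promoter windows of 300 bases (250 before the start to 50 after it), searched on both strands, CCAAT occurred in 34.6% and GGGCGG in 45.0%, so neither is rare. Among the 7423 used genes with a promoter in the table the shares were 44.4% and 79.6%. Among counted genes, CCAAT was in 56.1% of those higher in pair 3-4, or 49.0% without histone genes, and in 52.3% of those higher in pair 1-2. GGGCGG was in 74.4% of the former, or 85.0% without histone genes, and in 74.3% of the latter.

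Other matrix genes were divided. All 8 used genes of the fibrillar and other collagens were above 0 (median 0.54, controls 0.08), and COL12A1 (1.81 ± 0.08, SE) and COL5A2 (1.64 ± 0.15) were counted. COL12A1, a collagen that binds to fibril surfaces, read 1.95, 2.15, 3.81 and 3.91 in knockout libraries 1 to 4 and 2.33 to 2.53 in the controls, so pair 3-4 was the group that stood apart. Of 28 matrix glycoproteins and matricellular proteins, 7 were counted as higher in pair 3-4 and 2 as higher in pair 1-2, and with same-numbered controls subtracted 5 and 2 were. The list median was 0.31 (controls 0.11), and 0.06 for the genes with a mean of at least 3. LTBP1, which holds latent TGF-beta in the matrix, was at 0.97 and 1.33 in pair 1-2, 3.18 and 3.19 in pair 3-4 and 2.76 to 3.06 in the controls. EFEMP1 (fibulin-3) was 1.54 higher in pair 3-4, while its relative EFEMP2 (fibulin-4) was 1.41 higher in pair 1-2. FN1, fibronectin, was 1.16 higher in pair 3-4, and all knockout values (4.15 to 5.42) lay below all control values (5.97 to 6.12). THBS1, thrombospondin 1, differed by 1.51 between the knockout pairs and by 1.05 between the control sets, and was not counted once same-numbered controls were subtracted.

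Gelatinases also went opposite ways: MMP2 was higher in pair 3-4 by 1.93 and MMP9 higher in pair 1-2 by 1.49. MMP2 read 1.85, 1.95, 3.79 and 3.89 in the knockouts and 2.77 to 2.88 in the controls. MMP9 read 2.53, 2.50, 0.98 and 1.06 in the knockouts and 3.85 to 4.43 in the controls, so its knockout values were all below its controls. The matrix-bound protease inhibitor TIMP3 was 1.20 higher in pair 3-4, and was not counted with same-numbered controls subtracted. The list of plasminogen activation and coagulation had 15 used genes. Of these, THBD was higher in pair 1-2, and the protease-activated receptors F2RL1 (1.41) and F2R (1.15) were higher in pair 3-4. TM4SF1 (1.35), a membrane protein that the list also held, was higher in pair 3-4 and is not read here as a gene of that function. THBD and F2R were counted again with same-numbered controls subtracted, and F2RL1 and TM4SF1 were not.

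Receptors and the feedback genes of the ERK pathway tended to be higher in pair 3-4. Of 17 ERK feedback genes 14 were above 0, with a median of 0.58 (controls 0.08), and 3 were counted (17.6%, against 4.07% of all genes). DUSP6, a phosphatase that inactivates ERK and is induced by it, read 5.26 and 5.45 in pair 1-2, 6.62 and 6.55 in pair 3-4 and 6.57 to 6.65 in the controls, so pair 1-2 was the low group. EPHA4, an ephrin receptor, differed by 1.85 ± 0.16 (SE) and IER3, an early response gene, by 1.15 ± 0.14. The subtraction of same-numbered controls left DUSP6 and EPHA4 counted and IER3 not, and the list median was then 0.34. EGR1, a transcription factor induced by ERK, was at 0.76 and 1.07 in pair 1-2 and 1.75 and 1.98 in pair 3-4, below all controls (2.46 to 2.91) in both. The 17 used receptor tyrosine kinases had a median of 0.39 (controls -0.01), and the insulin-like growth factor receptor IGF1R (1.30) and the collagen receptor DDR1 (1.28) were counted.

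Genes of the BMP, TGF-beta, Wnt and Notch pathways gave medians between 0.19 and 0.40. The medians were 0.40 for BMP signalling and ID genes (controls 0.02), 0.37 for TGF-beta and activin signalling (0.05), 0.31 for Wnt signalling (0.17) and 0.19 for Notch signalling (0.04). The BMP median was 0.24 without knockout library 1 and 0.14 with same-numbered controls subtracted. The Wnt median was 0.07 for the genes with a mean of at least 3. In Wnt signalling the receptors FZD1 (1.53) and FZD7 (1.11) and the secreted modulator SFRP1 (1.12) were higher in pair 3-4, and the ligand WNT5B was 1.17 higher in pair 1-2. FZD1 and WNT5B were counted after same-numbered controls were subtracted, and FZD7 and SFRP1 were not. WNT5B stood at 2.14, 1.89, 0.98 and 0.71 in knockout libraries 1 to 4 and at 0.57, 0.89, 1.90 and 1.39 in control libraries 1 to 4, so the replicate sets were ordered oppositely in the 2 groups. BMP2, a bone-inducing ligand, was 1.54 ± 0.07 (SE) higher in pair 1-2, the only counted gene of its list, while the other listed ligand BMP6 was 0.99 higher in pair 3-4. HES1, the transcriptional repressor induced by Notch, read 3.35, 3.53, 5.57 and 5.49 in the knockouts and 4.37 to 4.94 in the controls, with the pairs on either side of all controls. The Notch target HEY1 differed by 0.55 in the other direction.

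Among regulators of growth and cytoskeleton, the YAP and TEAD list held regulators of the pathway beside targets. The targets ANKRD1 (2.17) and CCN1 (1.25) and the stress gene GADD45B (1.06) were higher in pair 1-2. The 3 genes higher in pair 3-4 were regulators: WWTR1 (1.92), which encodes TAZ, a co-activator like YAP, PTPN14 (1.05), a phosphatase that binds YAP, and NF2 (1.04), the upstream regulator merlin. After subtraction of same-numbered controls ANKRD1, CCN1 and WWTR1 were counted, and GADD45B, PTPN14 and NF2 were not. The early gene KLF4 (1.55) and the oncogene MYC (1.10) were higher in pair 1-2, opposite to FOS. TAGLN, a smooth muscle actin-binding protein, read 3.52 and 3.32 in pair 1-2, 2.00 in both libraries of pair 3-4 and -0.59, -0.26, 0.95 and 0.37 in the controls. It was thus higher in pair 1-2 of the knockouts but lower in set 1-2 of the controls. ACTA2, smooth muscle actin, was 1.79 higher in pair 3-4.

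NF-kappaB subunits and targets had a median of -0.28 over 18 genes (controls 0.05). BIRC3 read 1.76 and 1.77 in pair 1-2, -0.51 and -0.64 in pair 3-4 and 2.10 to 2.24 in the controls, so the low group was pair 3-4. The inhibitor NFKBIE was 1.40 higher in pair 1-2, and NFKBIZ, a nuclear cofactor, was 1.18 higher in pair 3-4 with a control set difference of 0.95, and was not counted with same-numbered controls subtracted. MHC class I presentation had the most negative list median, -0.51 (controls 0.00), with 15 of 16 genes below 0. HLA-B read 5.52 and 5.53 in pair 1-2, 4.40 and 4.38 in pair 3-4 and 5.42 to 5.89 in the controls. It was the 1 counted gene, and was not counted with same-numbered controls subtracted. The immunoproteasome subunit PSMB8 (0.94) and the peptide transporter TAP2 (0.87) were higher in pair 1-2 under the 2-fold rule. TAP2 lies in a stretch of chromosome 6 where 112 of 125 neighbouring genes were below 0, with a median of -0.36. The 19 used interferon-stimulated genes had a median of -0.14 (controls 0.05) and none was counted.

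Hypoxia genes were split, with 16 of 32 above 0 and 16 below, and a median of -0.01 (controls -0.19). EPAS1, DDIT4 and STC2 were higher in pair 1-2, VEGFA, the vascular growth factor, was higher there by 0.78, and the repressor BHLHE40 was 0.73 higher in pair 3-4. The 32 used genes of sterol and fatty acid synthesis had a median of 0.28 in the knockouts and 0.25 in the controls, and no list had a larger rounded control median than 0.25. Of these 32 genes 4 were counted as higher in pair 3-4, among them FADS2 (1.89) and SCD (1.02), fatty acid desaturases, and HMGCS1 (1.13), an enzyme of the mevalonate pathway. FADS2 was counted once same-numbered controls were subtracted, and HMGCS1 and SCD were not.

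Replication-dependent histone genes had the highest median of any group. The list of 35 symbols had 22 used genes, with a median of 1.03 (controls 0.13). Of the 22, 12 were counted (54.5%, against 4.07% of all genes). Because many symbols were missing from that list, all 59 used symbols of the replication-dependent clusters were taken by name, a choice made after values were seen. All 59 were above 0, 29 were counted as higher in pair 3-4, and the median was 1.00 (controls 0.06). With same-numbered controls subtracted, 23 of the 29 were counted. By family, 13 of 15 H2B genes, 10 of 15 H2A genes, 3 of 12 H3 genes, 2 of 12 H4 genes and 1 of 5 H1 genes were counted. Family medians were 1.14, 1.32, 0.85, 0.80 and 0.93 in that order.

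The median level of the 59 histone genes placed pair 3-4 (7.97 and 7.82) apart from pair 1-2 (6.74 and 6.75) and the controls (6.80 to 6.92). H2AC16 read 4.33, 4.54, 6.44 and 6.41 in knockout libraries 1 to 4 and 4.28, 4.30, 4.42 and 4.46 in the controls. H2BC14 read 5.60, 5.79, 7.62 and 7.61 in the knockouts and 5.59, 5.78, 6.14 and 5.97 in the controls. H2BC11 read 6.48, 6.63, 8.37 and 8.32, with controls from 6.93 to 7.30. H2BC8 read 7.39, 7.41, 8.97 and 8.93, with controls from 7.49 to 7.75. In H2BC11 and H2BC8 pair 1-2 also lay below all controls. H4C13, an H4 gene, was 1.73 ± 0.10 (SE) higher in pair 3-4. Near-identical copies are uncertain, since how reads were divided between them is not known: H3C14 read 4.61, -1.78, 5.27 and 5.77 and its copy H3C15 read 9.93, 9.90, 10.79 and 10.51. The difference of 4.10 for H3C14 rests on library 2 and was 0.91 without it. H2AC19 and its copy H2AC18 were split unevenly in libraries 2 and 4, and H2AC19 was the 1 gene past a difference of 1 whose pairs overlapped.

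H2A and H2B genes often lie head to head and share the sequence between them, where the octamer ATTTGCAT is a known element of H2B promoters. The 250 bases before the RefSeq start site are shown for the 3 H2B genes just described because they carry that octamer, in capitals. H2BC11 lies on the minus strand at chr6:27132796-27133045, H2BC8 on the minus strand at chr6:26216689-26216938 and H2BC14 on the plus strand at chr6:27814772-27815021, all on GRCh38.p14.
H2BC11: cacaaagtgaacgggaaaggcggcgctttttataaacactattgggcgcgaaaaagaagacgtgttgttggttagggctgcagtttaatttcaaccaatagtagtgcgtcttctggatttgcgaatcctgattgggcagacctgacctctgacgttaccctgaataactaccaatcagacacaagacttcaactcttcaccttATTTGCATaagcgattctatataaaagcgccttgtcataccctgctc
H2BC8: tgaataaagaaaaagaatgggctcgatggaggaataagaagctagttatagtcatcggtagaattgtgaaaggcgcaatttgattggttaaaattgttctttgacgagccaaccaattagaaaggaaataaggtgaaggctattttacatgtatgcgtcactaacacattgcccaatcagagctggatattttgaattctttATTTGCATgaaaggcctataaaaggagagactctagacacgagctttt
H2BC14: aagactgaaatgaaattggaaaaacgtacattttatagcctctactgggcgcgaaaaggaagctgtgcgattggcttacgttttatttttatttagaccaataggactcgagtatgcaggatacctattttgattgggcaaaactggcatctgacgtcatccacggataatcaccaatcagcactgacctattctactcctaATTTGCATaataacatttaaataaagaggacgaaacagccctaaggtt
The octamer starts 47 bases before the start site in H2BC11 and 48 before it in H2BC8 and H2BC14, and each of these windows overlaps that of the neighbouring H2A gene (H2AC11, H2AC8 and H2AC14), which was counted as well. On either strand of the 300-base window, ATTTGCAT was found in 12 of 15 H2B and 10 of 14 H2A promoters, in 1 of 10 H3 promoters and in 0 of 10 H4 and 0 of 5 H1 promoters, against 1.77% of all 35116 promoters. The H3 match lay in a window of H3C4 that is identical to the H2AC7 window, and the other H3C4 window had 0 matches. The octamer was in 25 of 180 promoters of genes higher in pair 3-4 (13.9%) and in 0 of 109 of those higher in pair 1-2. Most of the 25 were the histone genes themselves: without histone genes it was in 6 of 153 promoters of genes higher in pair 3-4 (3.92%), against 1.48% of the 7369 other used genes. The motif is a description of the window; H4C13 was among the larger differences without it. The ATF4-type element TGATGNAAT was in 0.991% of all promoters, in 0.781% of those of used genes and in 0 of 33 of the stress response list. At so low a share 33 promoters are too few to say whether the list is rich or poor in the element.

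The rest of the cell cycle machinery did not show a difference of that size. None of 45 DNA replication genes was counted (median 0.22, controls 0.13). Of 44 mitosis genes 1 was counted (median 0.27, controls 0.21): MKI67, the proliferation antigen Ki-67, at 2.36, 2.60, 3.94 and 4.35 in knockout libraries 1 to 4 and 2.79 to 3.50 in the controls.

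**Figure D4:**
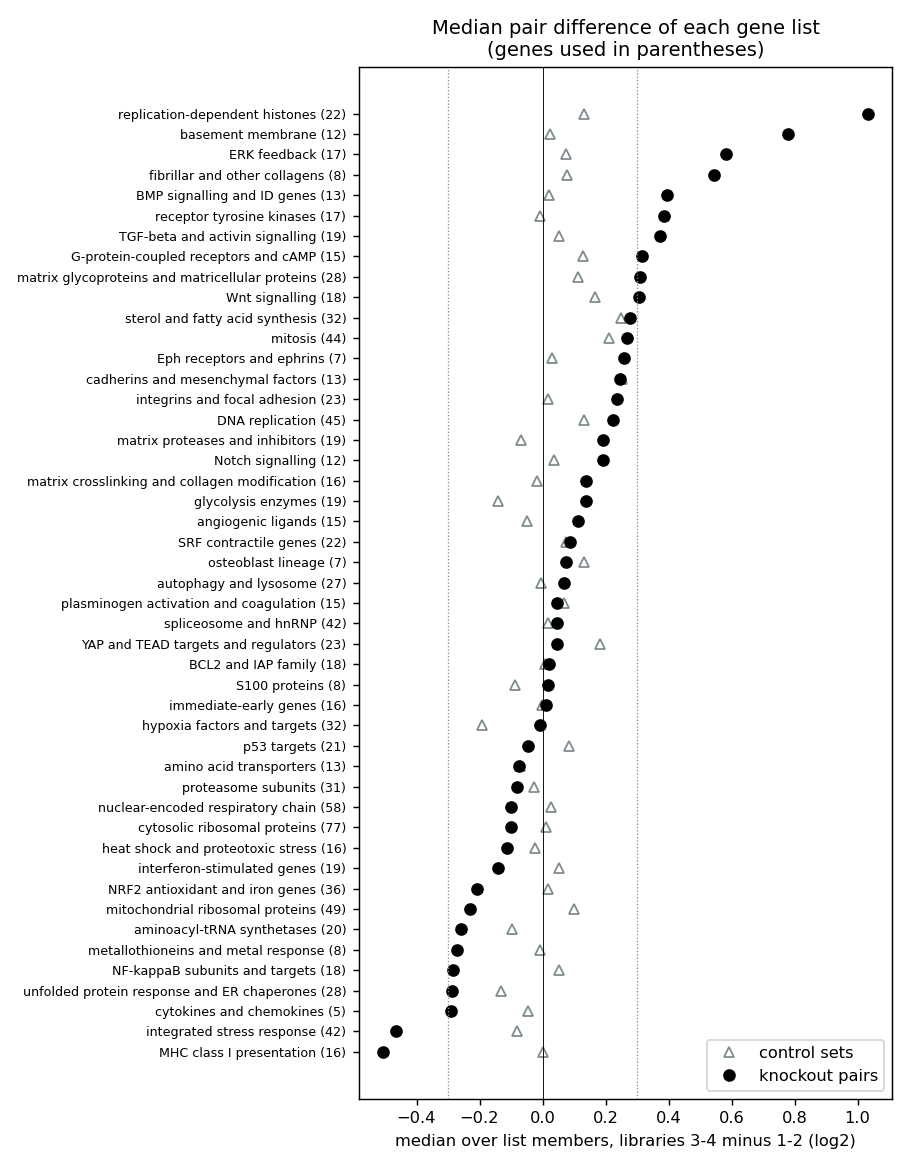
Median difference (libraries 3-4 minus 1-2, log2) over the used genes of each of 47 lists, for the knockout pairs (filled circles) and the control sets (open triangles); dotted lines mark 0.3 either way. The knockout medians run from -0.51 for MHC class I presentation to 1.03 for replication-dependent histones, while the control medians reach at most 0.25 in size.

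Of 47 lists with at least 5 used genes, 10 had a knockout median of at least 0.3, 2 had one of -0.3 or lower and 35 lay between; 0 control medians reached 0.3. With same-numbered controls subtracted the split was 8 higher in pair 3-4 and 7 higher in pair 1-2. Of those 7 the 5 that had not reached -0.3 before were the cytokine (-1.001 over 5 genes), mitochondrial ribosomal protein (-0.33), NF-kappaB (-0.33), metallothionein (-0.32) and osteoblast lineage (-0.31) lists. Without the subtraction the cytokine median was -0.29 (controls -0.05). Its member CXCL8 differed by -0.02 between the knockout pairs and by 1.36 between the control sets. After 1 was added to the linear values, 6 lists had a knockout median of at least 0.3 in size. Large housekeeping lists had few or no counted genes: 0 of 77 cytosolic ribosomal proteins (median -0.10), 0 of 49 mitochondrial ribosomal proteins (-0.23), 0 of 31 proteasome subunits (-0.08), 0 of 42 spliceosome and hnRNP genes (0.05), 0 of 20 aminoacyl-tRNA synthetases (-0.26) and 1 of 58 nuclear-encoded respiratory chain genes (-0.10). The control medians of these 6 lists lay between -0.10 and 0.10. The share counted over all 9016 genes was 4.07%, so the smaller of these lists would hold few counted genes at that share. Knockout differences below 0 numbered 53 of 77, 37 of 49, 22 of 31, 20 of 42, 16 of 20 and 42 of 58, in the same order.

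The pair difference also followed position in the genome, which was examined after values were seen, with gene positions from RefSeq on GRCh38.p14 and histone genes left out. On chromosome 4, 256 of 298 genes (85.9%) were lower in pair 3-4, with a median of -0.51, and 36 of the 150 genes counted as higher in pair 1-2 lay there. Pair 3-4 had a median of -0.45 against the controls on chromosome 4, and pair 1-2 one of 0.06. On chromosome 15, 84.6% of 311 genes were higher in pair 3-4, with a median of 0.36. Medians of -0.27 and -0.26 were seen on chromosomes 8 and 5. On chromosome 5 it was pair 1-2 that departed from the controls, by 0.24. The control set medians of these 4 chromosomes lay between -0.04 and 0.01.

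In blocks of about 25 neighbouring genes, 56 of 358 blocks had a knockout median of at least 0.3 in size (37 higher in pair 1-2 and 19 higher in pair 3-4). No control block did, the largest being 0.26, and between the 2 libraries of a knockout pair the largest block median was 0.08 in size. Adjoining blocks of 1 direction formed 10 stretches with 1057 of 8936 genes (11.8%), and these held 69 of the 150 genes higher in pair 1-2 and 23 of 188 placed genes higher in pair 3-4. One stretch, chr4:2937936-189963192 (NOP14 to FRG1), took in most of chromosome 4 with a median of -0.55 over 273 genes. Another, chr1:75786194-100132930 (RABGGTB to SASS6), had a median of -0.59 with 47 of 50 genes below 0, and CCN1 and GCLM lie in it. The stretch chr6:31639028-44265551 (BAG6 to NFKBIE) had a median of -0.36, and TAP2 and NFKBIE are among its genes. On chromosome 15 the stretches chr15:22786225-42737128 (NIPA1 to CDAN1) and chr15:66386912-101652381 (MAP2K1 to TM2D3), which holds IGF1R, both had a median of 0.39. Only RNA was measured, and whether the cells behind the pairs differed in DNA copy number was not tested.

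**Figure D5:**
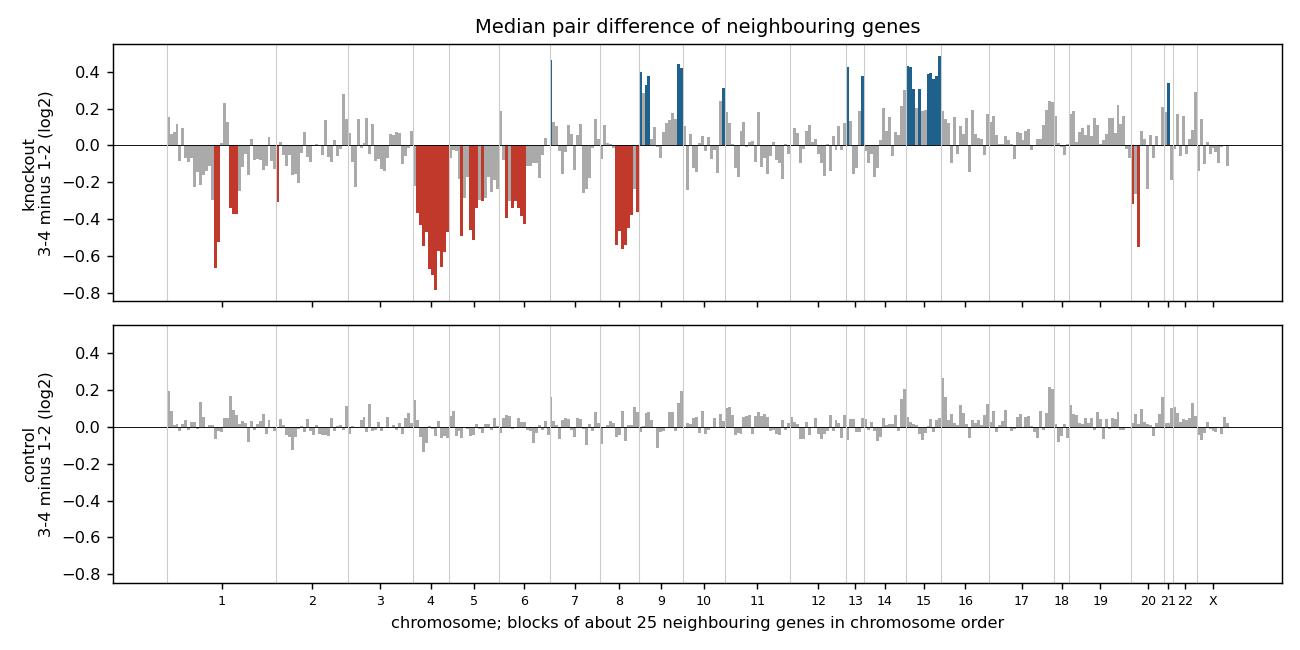
Median pair difference (libraries 3-4 minus 1-2, log2) of each of 358 blocks of neighbouring genes in chromosome order, knockout above and control below; blocks at 0.3 or more are blue and blocks at -0.3 or less red. The knockout panel shows runs of red blocks over chromosome 4 and parts of 1, 5, 6 and 8 and of blue blocks on 9 and 15, while no control block passes 0.26 in size.

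To see how far position went with the gene differences, the median of the 25 nearest used genes on each side was subtracted from each difference, an alternative added after values were seen. Counted genes higher in pair 3-4 then numbered 223, of which 178 were in the original 217. Genes higher in pair 1-2 then numbered 82 against 150, and 76 of them were in the original 150. All 11 stress response genes, all 4 basement membrane genes and all 29 histone genes stayed past 1. List medians were then -0.49 for the stress response, 0.88 for the basement membrane, 1.27 for the 59 histone genes and 0.58 for ERK feedback, and -0.35 for MHC class I presentation. HLA-B was 0.79 and GCLM 0.61 higher in pair 1-2 after the subtraction, both under 1, and CCN1 was 0.59 higher.

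Transcript properties moved with the difference as well. Across 8803 genes with a GENCODE 29 transcript, Spearman's rho of the knockout pair difference with transcript length was 0.20 (controls -0.03) and with GC content 0.27 (controls 0.26). The median knockout difference ran from -0.19 in the fifth of genes lowest in GC to 0.13 in the highest, and the control median from -0.06 to 0.07. The part of either property in the differences above was not tested.

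The labelled cell type and the targeted gene were looked at in the same values. VIM, a mesenchymal filament gene, was between 10.19 and 10.87 in all libraries. Of 11 mesenchymal and osteoblast markers 5 passed the filter: VIM, SPARC, CD44, NT5E and ENG. The markers COL1A1 (-1.45 to 0.90), RUNX2 (0.05 to 0.43) and ALPL (-1.75 to -0.34) did not pass. COL1A2 and THY1 were blank in some libraries and SP7 throughout. The highest value of this list outside VIM was 6.22 (CD44), so the summed level given below mostly follows VIM. Of 11 epithelial markers 3 passed (KRT8, KRT18 and EPCAM), and their summed linear level was 612 to 635 in pair 1-2, 660 to 702 in pair 3-4 and 535 to 579 in the controls. Endothelial markers passed in 2 of 12 (EGFL7 and TIE1; summed level 36.0 to 38.9 in pair 1-2, 37.8 to 38.3 in pair 3-4 and 43.3 to 48.5 in the controls) and leukocyte markers in 1 of 10 (CD68). The mesenchymal sum was 1298 to 1307 in pair 1-2, 1675 to 1769 in pair 3-4 and 1895 to 2006 in the controls; the part of other cells or of fewer cells of a type was not tested, and in bulk RNA it cannot be told apart from less RNA per cell. NELL1 lay far below the filter in both groups. It read -4.82, -5.87 and -6.96 in knockout libraries 1, 2 and 4, with library 3 blank. The controls ran from -6.97 to -4.53, so the low level was not particular to the knockout libraries. The level of NELL1 therefore does not check the knockout in either pair.

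Values at the edges of the rules were close to one another. Just inside the filter were MFSD11, SP110 and MTHFSD (means of 1.00), with pair differences of 0.17, -0.45 and -0.03. Just outside were INTS6, TMEM254 and RPGR, with -0.03, 0.29 and 0.44. At the 2-fold edge H4C2 (1.001) and CHST14 (1.002) were just counted as higher in pair 3-4 and VPS13C (0.9999) and CBR3 (0.998) were not. In favour of pair 1-2, RNFT1 and MOSPD1 (both 1.01) were counted and ZRANB2 and EBPL (0.997 and 0.996) were not.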

How the data were processed

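Total RNA of 8 libraries (4 labelled NELL1 knockout, 4 vector control) was extracted with TRIzol and prepared with a TruSeq stranded total RNA kit, per the labels' protocols. The submitters' processing notes name bcl2fastq, Partek 7.0 and GRCh38 without roles; the aligner, counter, annotation and unit before the logarithm are not given in the sources used here. The deposited values are on a log2 scale, quantile normalized by the authors: each library had the same mean (1.07), median (1.77), lowest (-10.5) and highest value (12.1), and base 2 was inferred from that range. A library held values for 14911 to 15171 genes, and blanks were treated as missing. Differences of pair means were computed in Python 3.11.15 with pandas 2.3.3 and numpy 2.4.6, with a filter at a mean of 1 and a threshold of 1. No test was made, because the pairs were chosen from these values.

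The members, the 52 gene lists and the threshold were chosen with earlier results of these data known. Named genes were the 5 markers, the 12 largest counted differences each way, the 3 largest of each list with at least 5 used genes, NELL1, genes at the edges of the rules, the 3 nearest profiles of each marker and the largest control differences; other genes were named after their values were seen. Mitochondrially encoded genes had 0 used members. Positions and promoters came from RefSeq (GRCh38.p14), with a position for 8995 and a promoter for 7423 of the 9016 genes. Alternatives were other filters, thresholds, scalings, a pseudocount of 1, subtraction of same-numbered controls and leaving out each library.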

Additional observations from a re-analysis of the deposited data

Results flagged for a closer look

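Groups of 4 libraries were looked at for 155 genes used above or below, in each of the 2 groups (310 in all). In 10 of them the highest or lowest library lay farther from the other 3, for the group's range, than Dixon's criterion allows. Its rate of about 1 in 20 does not apply here, since many genes were named for a split of the knockout libraries 2 against 2. Such a split leaves little room for a flag in the knockout groups. In 7 of the 10 flagged groups the library was control 3. It was the lowest control for AGRN (3.73, the others 3.93 to 3.96), IFRD1 (3.70, the others 3.96 to 3.97), LAMA5 (1.72, the others 2.07 to 2.11), LAMB1 (6.59, the others 6.78 to 6.80) and TXNRD1 (5.82, the others 6.04 to 6.06). It was the highest control for DDB2 (2.60, the others 2.41 to 2.43) and GEM (3.50, the others 3.34 to 3.36). Knockout library 2 was the lowest for H3C14 (-1.78, the others 4.61 to 5.77), knockout library 3 for HSPA5 (8.08, the others 8.85 to 8.91) and knockout library 1 for TIE1 (4.57, the others 4.69 to 4.70).

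In 32 of the 367 counted genes the 2 knockout pairs and the 2 control sets were each fully separated, in opposite directions. Over all 9016 genes the knockout pairs were separated in 84.6% and the control sets in 58.5%. The share separated in opposite directions was not counted over all genes, so the 32 cannot be called many or few. Of the 32 genes 10 are named here, and the difference between the groups was not tested. The knockout difference was -2.40 for HMOX1 (controls 0.43), -2.17 for ANKRD1 (controls 0.24), -1.82 for EPAS1 (controls 0.27) and -1.42 for TAGLN (controls 1.08). It was -1.40 for NFKBIE (controls 0.21), -1.37 for GDF15 (controls 0.07), -1.25 for CCN1 (controls 0.57), -1.17 for WNT5B (controls 0.91) and -1.10 for MYC (controls 0.17). For H4C2 it was 1.00 (controls -0.13).

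Genes blank in 1 pair enter no comparison above. In the knockouts 142 genes had values in libraries 1 and 2 and were blank in 3 and 4, against 62 in the controls. A further 139 had values in libraries 3 and 4 and were blank in 1 and 2, against 112 in the controls.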

How the results depend on the processing

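With 2 libraries a side, unknown depth and quantile-normalized values, counts depend on the rule, and median centring, a further quantile normalization and leaving out histone genes kept every count within 1.5 times. For the knockout pairs, the control sets and the knockout values with same-numbered controls subtracted, the counts (367, 15 and 312) became 1356, 360 and 1333 with no filter on low values and 154, 6 and 141 at a mean of at least 3. They became 1521, 116 and 1442 at a difference of 0.58, 91, 1 and 65 at 1.5, and 227, 7 and 185 with a pseudocount of 1 on the linear scale. With the nearest values of the pairs at least 1 apart they were 266, 2 and 168. Leaving out 1 library at a time gave 343 to 414 genes for the knockout pairs, 4 to 54 for the control sets and 286 to 358 for the subtracted values. The replicate block, each knockout value less its same-numbered control, gave 312 genes (161 higher in pair 3-4 and 151 higher in pair 1-2, against 217 and 150), 15 lists past 0.3 (8 and 7, against 10 and 2) and 25 of 25 named genes past 1; the labels do not say that same-numbered libraries belong together. The 12 lists with a median past 0.3 were 6 with the pseudocount of 1 and 8 to 18 with 1 knockout library left out. The 25 named genes (the 5 markers and the 12 largest each way) past a difference of 1 were 9 at a mean of at least 3, since the others failed that filter, and 24 to 25 with 1 library left out. No list median past 0.3 and no named difference past 1 changed sign under any alternative run. The pairs of a counted gene do not overlap, so leaving out 1 knockout library could not change its sign. The 25 named genes were picked for large differences, so their staying past 1 is no independent check. Over the alternatives the 12 medians ran from -0.49 to -0.32 for the stress response, -0.54 to -0.35 for MHC class I presentation, 0.97 to 1.31 for the histone list, 0.69 to 0.88 for the basement membrane, 0.43 to 0.68 for fibrillar and other collagens, 0.32 to 0.62 for ERK feedback, 0.29 to 0.41 for receptor tyrosine kinases, 0.27 to 0.40 for TGF-beta, 0.19 to 0.42 for G-protein-coupled receptors, 0.14 to 0.45 for BMP, 0.07 to 0.48 for Wnt and 0.06 to 0.47 for matrix glycoproteins. The regional subtraction and the removal of histone genes were added after values were seen.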

Other observations

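Most genes with values in only 1 knockout pair were near the bottom of the range, with median levels of -5.89 and -5.99. The highest of them was GLMP, which encodes a lysosomal membrane protein. It read 0.87 and 0.71 in knockout libraries 1 and 2, was blank in libraries 3 and 4, and read 0.13 to 0.27 in the 4 controls. The epithelial differentiation gene SPRR2D (-0.13 and -0.26) and the class II gene HLA-DQB1 (-0.12 and -0.62) were likewise blank in pair 3-4, with controls at -1.92 or lower and -1.53 or lower. CD14, a receptor for bacterial lipopolysaccharide, was at -2.67 and -2.94 in pair 3-4 and blank in pair 1-2, with controls from -4.90 to -4.22. The rule for blank cells is not given in the sources used here, so a blank cannot be read as 0.

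Adhesion and vascular genes were also divided between the pairs. Of 23 used integrin and focal adhesion genes 19 were above 0 (median 0.24, controls 0.02), and TNS3 (1.11) and ITGA10 (1.04), a tensin and a collagen-binding integrin chain, were counted as higher in pair 3-4. Neither was counted with same-numbered controls subtracted. Among 15 angiogenic ligands FGF2, a fibroblast growth factor, was 1.41 higher in pair 1-2, while APLN (apelin, 1.16) and PGF (placental growth factor, 1.12) were higher in pair 3-4. FGF2 was counted with same-numbered controls subtracted, and APLN and PGF were not. APLN read 2.50, 2.39, 3.60 and 3.62 in the knockouts and 0.78 to 1.32 in the controls, so both pairs were above all controls. Amino acid transporters had a median of -0.07 over 13 genes (controls -0.07), with none counted. SLC3A2, the heavy chain shared by several exchangers, was 0.90 higher in pair 1-2 and the cystine transporter chain SLC7A11 0.63 higher.

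Between the control sets 14 of the 15 counted genes were higher in control libraries 3 and 4. After FOS the largest were the helicase RTEL1 (1.47), MAT2A (1.41), which makes S-adenosylmethionine, and the chemokine CXCL8 (1.36). CXCL8 read 2.25, 2.27, 4.11 and 3.14 in control libraries 1 to 4 and 2.63, 2.74, 2.83 and 2.50 in the knockouts, where the pair difference was -0.02. RTEL1 differed by 0.49 between the knockout pairs and MAT2A by 0.97. In these genes control library 3 was the highest control and control library 4 lay between it and the first 2.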
